A study of Homo sapiens with 28 samples.

Results

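The HOX cluster genes were represented by 31 of the 22215 probe sets of the array that were not controls, and these belong to 24 of 11963 singly named genes. They are all probe sets whose annotation gives 1 gene symbol made of HOXA, HOXB, HOXC or HOXD and a number, whatever their signal. RefSeq lists 39 genes of the 4 clusters, and the other genes are not analysed here. Expression was measured on 28 one-colour oligonucleotide arrays from 2 human non-small cell lung cancer lines, A549, from a lung adenocarcinoma, and H1299, from a lymph node metastasis. In either line 6 groups received azacitidine or decitabine for 48 h, each drug at 0.3, 1 and 3 µM, and 1 group received dimethyl sulfoxide alone as the vehicle, which makes 14 groups of 2 arrays. The labels do not say whether a group's arrays stem from different cultures, and p-values therefore refer to the spread between the arrays, which may be technical.

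HOX genes encode homeodomain transcription factors that give cells along the body axis their positional identity. They lie in clusters named A to D, and their order along a cluster follows the order in which they are used from head to tail, so low numbers are called anterior and high numbers posterior. Polycomb and Trithorax proteins keep them silent or active, many of their promoters are rich in CpG, and methylation of HOX CpG islands is common in lung tumours. Azacitidine and decitabine are cytidine analogues that are built into DNA and trap DNA methyltransferases. Azacitidine is the ribose form, which is also built into RNA, and decitabine is the deoxyribose form of the same base analogue. In the RefSeq annotation of GRCh38.p14 cluster A lies on chromosome 7, cluster B on chromosome 17, cluster C on chromosome 12 and cluster D on chromosome 2. Cluster A had 1 probe set (HOXA2), cluster B 13 probe sets of 9 genes, cluster C 7 of 7 genes and cluster D 10 of 7 genes.

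The array median signal lay between 92.7 and 123 and the 25th percentile between 18.0 and 28.3. The deposited signal carries no detection call here, so each member was placed against these values. In A549 the array of vehicle replicate 1 and that of azacitidine 3 µM replicate 1 had the highest 25th percentiles, at 28.3 and 25.7, and decitabine 3 µM replicate 1 was labelled a repeat. Calls that were lost without these 3 arrays are given with their adjusted p without them. The drug differences at single matched doses were not tried without them. The epithelial and mesenchymal genes KRT8, KRT18 and VIM exceeded the array median on all 28 arrays. Not every marker of these kinds did. EPCAM exceeded it on 20 arrays and KRT19 on 17, and the probe sets of CDH1 on 0 and 11. Those of CDH2 exceeded it on 20 and 28 arrays, of ZEB1 on 17 to 28, and of FN1 on 0 to 24. In H1299 the highest CDH1 signal was 20.5, and the median KRT19 signal was 1.59. The leukocyte genes PTPRC, CD3E and CD14 exceeded the array median on 0 arrays. Of the endothelial genes, CDH5 and PECAM1 did so on 0 arrays and VWF on 1, with a highest signal of 101, in H1299. Of the markers of lung alveolar epithelium, SFTPC and NKX2-1 did so on 0 arrays, while of 4 probe sets of SFTPB, a surfactant protein gene, 2 did so on 15 and 18 arrays and the other two on 0. Signals were compared as log2(signal + 32), so that differences of dim probe sets are drawn toward 0. Every difference below is on that scale, is followed by ± its standard error, and was called where the Benjamini-Hochberg adjusted p of limma over all 22215 probe sets was under 0.05. With 2 arrays a group, precision is limited throughout.

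Most HOX probe sets were dim. Of the 31 members, 14 lay below the array median on all 28 arrays, 10 exceeded it on some arrays and 7 exceeded it on all 28. The 7 were those of HOXB2, HOXC4 and HOXC6, 1 of the 2 of HOXB5 and the 3 of HOXB7, and none of them lay in cluster D or among paralog numbers 9 to 13. Cluster D had 8 of its 10 probe sets below the median throughout, against 5 of 13 in cluster B and 0 of 7 in cluster C. HOXB13, which marks prostate and hindgut epithelium, exceeded the 25th percentile on 1 array, and HOXD10 and HOXD12, which act in the limb, on 0 arrays. HOXC10 and the probe set 205604_at of HOXD9 exceeded the median in 0 of 14 A549 arrays, and did so in 14 and 5 of 14 H1299 arrays. HOXC13, a gene of hair and nail, did so in 9 of 14 A549 arrays and in 0 of 14 H1299 arrays.

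The lines differed in HOX expression before any drug. Under vehicle 12 members passed the test, 2 higher and 10 lower in A549 than in H1299, and 39.4% of all probe sets passed it (19.4% higher and 20% lower). HOXB2, a hindbrain patterning gene, read 149 and 159 in A549 and 2902 and 2930.0 in H1299. Its difference of -3.99 ± 0.152 (adjusted p 3.57e-14) was the widest among the members, and the arrays of the lines lay far apart. HOXC6, a thoracic gene, read 1257 and 978 in A549 and 4109 and 4092 in H1299, a difference of -1.86 ± 0.144 (adjusted p 1.77e-09). HOXC10, which acts in hindlimb motor neurons, read 69.7 and 104 in A549 and 340.0 and 361 in H1299, a difference of -1.70 ± 0.193 (adjusted p 4.27e-07). The arrays of the lines did not overlap for any of these genes. HOXC13 lay the other way, with 164 and 81.1 in A549 and 10.2 and 11.9 in H1299, a difference of 1.79 ± 0.389 (adjusted p 0.000837). The 2 A549 arrays of HOXC13 differed from each other, and both lay above both H1299 arrays. A dim probe set of HOXD9, 205605_at, read 9.55 and 13.1 in A549 and 3.37 and 15.1 in H1299, with no call. Over all arrays it lay between 2.11 and 37.5. HOXD9 (205604_at), a limb and trunk gene, read 13.7 and 43.9 in A549 and 119.6 and 87.8 in H1299, a difference of -1.20 ± 0.285 (adjusted p 0.00196). Without A549 vehicle replicate 1 its adjusted p was 0.057.

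Smaller differences between the vehicle groups were called for 5 further genes. The 3 probe sets of HOXB7 were lower in A549, with differences of -0.84 (204778_x_at), -0.65 (204779_s_at) and -0.61 (216973_s_at), with adjusted p of 1.4e-06, 2e-07 and 5.86e-07. HOXC8 differed by -0.93 ± 0.222 (adjusted p 0.00191), HOXB9 by -0.70 ± 0.231 (adjusted p 0.0198), HOXB5 (205600_x_at) by -0.75 ± 0.254 (adjusted p 0.0227) and HOXA2 by 0.83 ± 0.215 (adjusted p 0.00387), the last higher in A549. The HOXB9 call was lost without A549 vehicle replicate 2 or H1299 vehicle replicate 1 (adjusted p 0.162 and 0.154) and that of HOXA2 without H1299 vehicle replicate 1 (adjusted p 0.0602). The HOXB5 call was lost without each of the 4 vehicle arrays in turn (adjusted p 0.0537 to 0.114). Without the 3 arrays named above 11 members were called, and the member lost was HOXB5 (adjusted p 0.0535). Median centring moved the median difference of all probe sets between the vehicle groups to -0.13, against 0.02 as deposited.

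**Figure D1:**
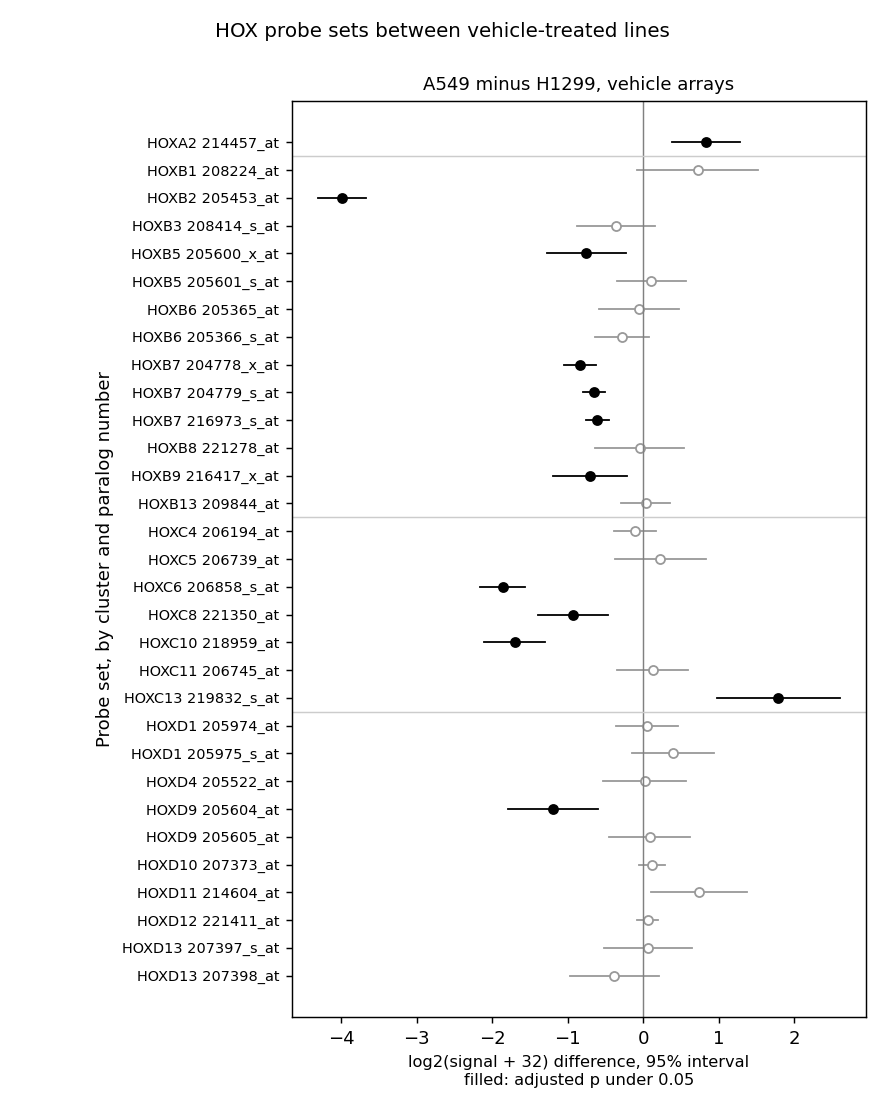
The 31 HOX probe sets between the lines under vehicle, as A549 minus H1299 in log2(signal + 32) units with 95% intervals, ordered by cluster and paralog number from top to bottom. Filled points passed the test; HOXB2 stands at -3.99 on the left and HOXC13 at 1.79 on the right.

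The drugs changed some HOX genes in each line. Over the 12 comparisons of a dose with its vehicle, 15 members of 12 genes were called at least once, in 34 calls of which 24 were higher and 10 lower, and 16 members were called in none. Those 15 are 48.4% of the members, beside 50.2% of all probe sets. Of the members 12 were higher and 8 lower at least once, beside 30.7% and 28.2% of all probe sets, and 70.6% of the members' calls and 53.3% of all calls were higher. In A549 azacitidine changed 6 members at 1 or more doses, 19.4% of the members against 22.8% of all probe sets. Of these 1 was higher and 5 were lower, beside 11.9% and 10.9% of all probe sets. Decitabine changed 2 there, 6.45% against 15.3%, with 1 higher and 1 lower beside 8.03% and 7.31%. In H1299 azacitidine changed 10, 32.3% against 34.7%, with 8 higher and 2 lower beside 19.5% and 15.6%. Decitabine changed 5 there, 16.1% against 19.1%, with 5 higher and 0 lower beside 9.41% and 9.69%.

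Counts grew with dose, as they did for all probe sets. In A549 azacitidine had 0, 3 and 5 members called at 0.3, 1 and 3 µM, beside 0.851%, 12.9% and 20% of all probe sets. For decitabine the counts there were 0, 0 and 2, beside 3.44%, 7.88% and 13.6%. In H1299 azacitidine had 1, 4 and 9 called, beside 1.79%, 18.4% and 30.4%, and decitabine 2, 3 and 5, beside 7.83%, 11.1% and 15.5%. Where A549 counts were 0, limma gave an uncorrected p under 0.05 to 1 member with azacitidine at 0.3 µM and to 3 with decitabine at each of 0.3 and 1 µM. At 3 µM the median difference of the members was -0.09 for azacitidine and -0.08 for decitabine in A549, and 0.01 and 0.08 in H1299, where the medians of all probe sets were 0.02, -0.03, 0.00 and -0.04 in the same order. The 12 comparisons share their vehicle arrays within a line. Of 12 probe sets of mesenchymal markers, azacitidine at 3 µM gave 1 higher and 5 lower in A549 and 0 higher and 6 lower in H1299, and of 17 probe sets of lung and epithelial markers 0 higher and 4 lower in A549 and 0 and 1 in H1299. With decitabine at 3 µM the mesenchymal counts were 0 and 2 in A549 and 3 and 1 in H1299, and the epithelial counts 3 and 1 in A549 and 4 and 0 in H1299. Of all probe sets, azacitidine at 3 µM gave 10.9% higher and 9.1% lower in A549 and 17.4% and 13% in H1299. For decitabine these shares were 7.44% and 6.14% in A549 and 8.04% and 7.47% in H1299. Several mesenchymal probe sets are of 1 gene, FN1, and are not independent. The part of these markers in the HOX values was not tested, and fewer cells of a kind and less RNA per cell cannot be told apart in such bulk samples.

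**Figure D2:**
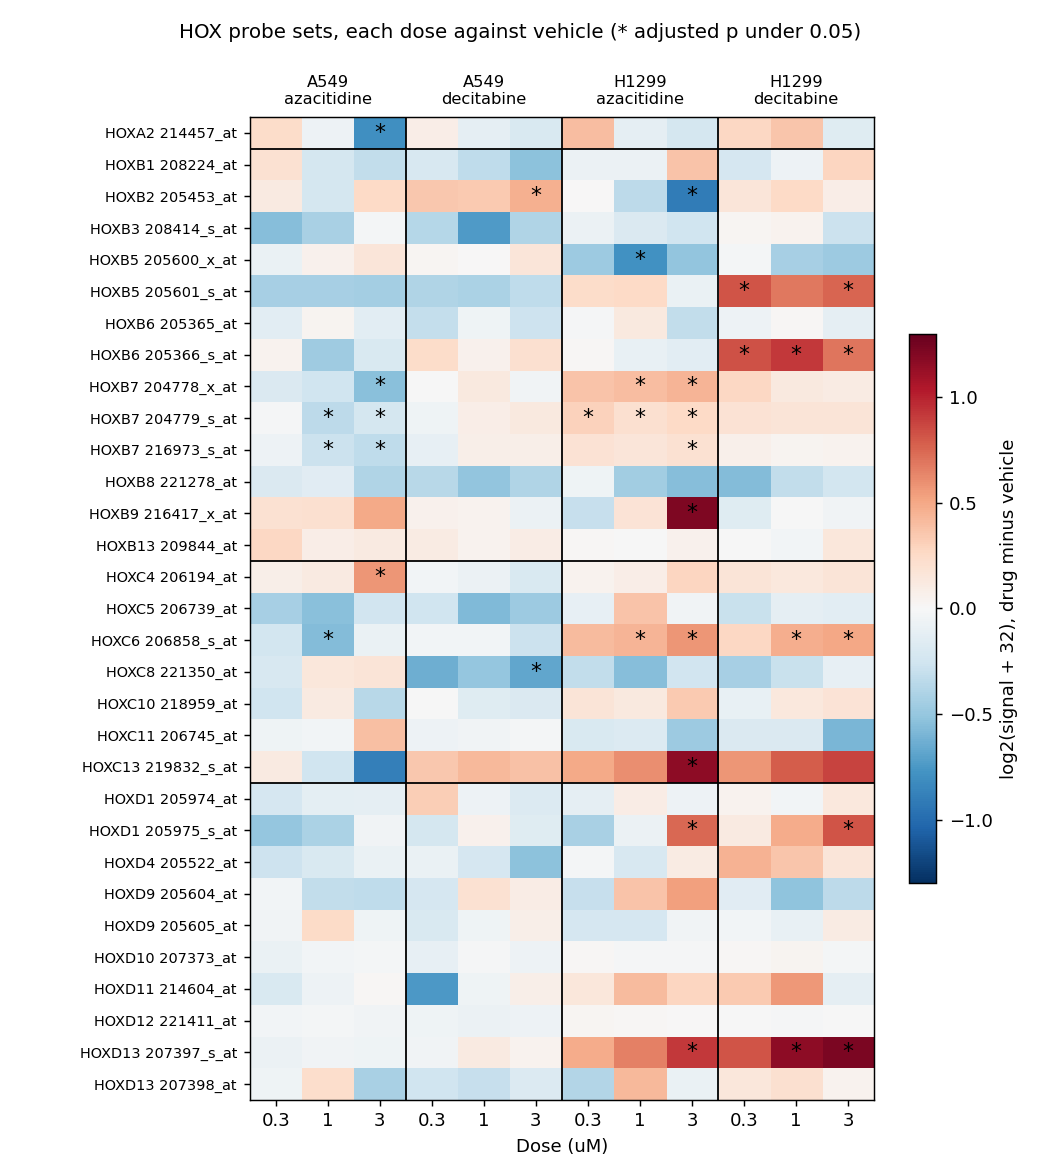
The 31 HOX probe sets (rows, by cluster and paralog number) in the 12 comparisons of a dose with vehicle (columns, by line, drug and dose in µM), coloured by the difference in log2(signal + 32) from blue, lower, to red, higher. Stars mark the 34 calls, of which 24 are higher and 10 lower.

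HOXA2, the only member of cluster A, patterns the hindbrain and the second pharyngeal arch. With azacitidine in A549 it read 43.1 and 35.0 under vehicle, 67.7 and 38.1 at 0.3 µM, 38.9 and 32.5 at 1 µM, and 11.3 and 6.56 at 3 µM. Both arrays at 3 µM lay below every other A549 array, and the difference of -0.80 ± 0.215 (adjusted p 0.0114) was called. In A549 with decitabine it read 38.7 and 47.8 at 0.3 µM, 53.5 and 18.3 at 1 µM, and 27.3 and 32.9 at 3 µM, with no call. In H1299, where neither drug gave a call, it read 3.58 and 12.9 under vehicle, 12.4 and 30.3 at 0.3 µM, 5.87 and 3.88 at 1 µM, and 3.71 and 0.778 at 3 µM of azacitidine and 17.1 and 15.4 at 0.3 µM, 18.5 and 19.9 at 1 µM, and 2.45 and 5.51 at 3 µM of decitabine. All these values are under the array median, and the call was lost without azacitidine 3 µM replicate 2 or vehicle replicate 1 (adjusted p 0.0874 and 0.0812), without the 3 arrays named above (0.134) and with only A549 in the fit (0.0521). The HOXA2 window from 250 bases before to 50 after its start, from RefSeq on GRCh38.p14 (chr7:27102634-27102933, minus strand), is printed 5′ to 3′ because HOXA2 had the widest called fall of azacitidine at 3 µM in A549, with CG in capitals as the base pair step that DNA methyltransferases act on; the motif reads the same on both strands.
HOXA2: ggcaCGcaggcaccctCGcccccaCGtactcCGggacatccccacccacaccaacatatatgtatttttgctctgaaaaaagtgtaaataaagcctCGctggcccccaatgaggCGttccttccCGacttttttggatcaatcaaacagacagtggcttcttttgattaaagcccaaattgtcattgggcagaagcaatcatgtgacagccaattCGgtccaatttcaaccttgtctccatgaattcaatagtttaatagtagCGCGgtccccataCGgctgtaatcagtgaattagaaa
It holds 11 CpG, and 54.7% of 35116 such windows hold as many or more. Methylation was not measured here.

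HOXB2 showed the largest called fall of a HOX gene in H1299. There it read 2902 and 2930.0 under vehicle, 2955 and 2893 at 0.3 µM, 2369 and 2211 at 1 µM, and 1374 and 1717 at 3 µM of azacitidine. The 2 arrays at 3 µM lay below all other H1299 arrays, and the difference was -0.91 ± 0.152 (adjusted p 8.84e-05). This call was kept without any 1 array and under all 11 other settings tried. With decitabine in H1299 it read 3440.1 and 3066 at 0.3 µM, 3412 and 3596 at 1 µM, and 3114 and 3066 at 3 µM, and no dose was called. In A549 it read 160.1 and 179 at 0.3 µM, 105 and 151 at 1 µM, and 225 and 161 at 3 µM of azacitidine with no call. There it read 149 and 159 under vehicle, 175 and 239.6 at 0.3 µM, 212 and 195 at 1 µM, and 197 and 254 at 3 µM of decitabine, and at 3 µM it was higher by 0.47 ± 0.152 (adjusted p 0.0486). That call was lost without decitabine 3 µM replicate 2 (adjusted p 0.324), vehicle replicate 1 (0.21) or vehicle replicate 2 (0.0986). It was also lost under 5 of 11 other settings, with adjusted p of 0.0534 to 0.188, among them that without the 3 arrays named above (0.0927).

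HOXB5, which shapes the branching lung in mouse, and HOXB6 lie next to each other in cluster B, and in H1299 a probe set of each rose with decitabine. HOXB6 (205366_s_at) read 182 and 171 under vehicle, 364 and 314 at 0.3 µM, 342 and 380.4 at 1 µM, and 244 and 377 at 3 µM in H1299 with decitabine. All 6 treated arrays lay above both vehicle arrays, and the differences were 0.83 ± 0.171 (adjusted p 0.0041), 0.91 ± 0.171 (adjusted p 0.00116) and 0.69 ± 0.171 (adjusted p 0.00815) at 0.3, 1 and 3 µM. With azacitidine the same probe set read 168 and 189.8 at 0.3 µM, 169 and 157 at 1 µM, and 159 and 157 at 3 µM, and no dose was called. In A549 the probe set read 147 and 133 under vehicle, 163 and 131 at 0.3 µM, 105 and 81.7 at 1 µM, and 118 and 117 at 3 µM of azacitidine and 143 and 204 at 0.3 µM, 149.6 and 143 at 1 µM, and 162 and 173 at 3 µM of decitabine, with no call. The call at 1 µM in H1299 was kept without any 1 array. That at 0.3 µM was lost without decitabine 0.3 µM replicate 1 (adjusted p 0.0627), and that at 3 µM without decitabine 3 µM replicate 2 or vehicle replicate 2 (0.192 and 0.0634). The other HOXB6 probe set (205365_at) lay between 13.5 and 60.5 on all arrays and was called in no comparison.

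HOXB5 (205601_s_at) read 141 and 139.7 under vehicle, 308 and 240.3 at 0.3 µM, 289 and 206 at 1 µM, and 277 and 243 at 3 µM in H1299 with decitabine. All 6 treated arrays lay above both vehicle arrays, and the differences were 0.82 ± 0.22 (adjusted p 0.0252), 0.68 ± 0.22 (adjusted p 0.0531) and 0.76 ± 0.22 (adjusted p 0.0234), of which those at 0.3 and 3 µM were called. The call at 0.3 µM was lost without its replicate 1 or either vehicle array (adjusted p 0.114 to 0.221), and that at 3 µM without each of its 4 arrays in turn (0.0625 to 0.153). With azacitidine in H1299 it read 202 and 146 at 0.3 µM, 196 and 154 at 1 µM, and 146 and 116 at 3 µM, with no call. In A549 the probe set read 179 and 132 under vehicle, 114 and 99.1 at 0.3 µM, 139.9 and 78.4 at 1 µM, and 123 and 88.0 at 3 µM of azacitidine and 125 and 95.9 at 0.3 µM, 109.9 and 106 at 1 µM, and 116 and 115 at 3 µM of decitabine, with no call. All but 1 of the 12 treated A549 arrays lay below both vehicle arrays. The second HOXB5 probe set (205600_x_at) did not follow: in H1299 it read 271 and 299.8 under vehicle, 169 and 229 at 0.3 µM, 164 and 141 at 1 µM, and 146 and 243 at 3 µM of azacitidine, and the difference at 1 µM of -0.79 ± 0.254 (adjusted p 0.0356) was called. With decitabine in H1299 it read 271 and 286 at 0.3 µM, 236 and 174 at 1 µM, and 184 and 209 at 3 µM, and no dose was called. In A549 it read 165 and 147 under vehicle, 169 and 124 at 0.3 µM, 236 and 111 at 1 µM, and 143 and 220.2 at 3 µM of azacitidine and 149 and 172 at 0.3 µM, 148 and 167 at 1 µM, and 164 and 192 at 3 µM of decitabine, with no call. Probe sets whose name ends in x_at may also bind other transcripts, and the fall was lost without each of the 4 arrays in turn (adjusted p 0.0726 to 0.19) and with median centring (0.0513).

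HOXB7, reported as overexpressed in several carcinomas, was measured by 3 probe sets, and azacitidine lowered it in A549 and raised it in H1299. Of these probe sets 204778_x_at may also bind other transcripts, as its name ends in x_at. Names ending in s_at do not exclude this, as 3 such probe sets are annotated to LOC401021, HOXD4 and HOXD3 together. The H1299 rises of HOXB5 (205601_s_at), HOXB6 (205366_s_at), HOXC6 (206858_s_at), HOXD1 (205975_s_at) and HOXD13 (207397_s_at) also come from s_at probe sets. In A549 204779_s_at read 1307 and 1355 under vehicle, 1274 and 1367 at 0.3 µM, 1109 and 990.0 at 1 µM, and 1146 and 1115 at 3 µM of azacitidine. In H1299 it read 2292 and 1946 under vehicle, 2649 and 2547 at 0.3 µM, 2394 and 2483 at 1 µM, and 2448 and 2619 at 3 µM. The 4 A549 arrays at 1 and 3 µM lay below both vehicle arrays, and all 6 H1299 arrays with azacitidine lay above both of theirs. For this probe set all 6 H1299 arrays with decitabine, given below, also lay above both vehicle arrays. At 3 µM in A549 the differences were -0.55 ± 0.104 (adjusted p 0.000627) for 204778_x_at, -0.23 ± 0.0701 (adjusted p 0.0249) for 204779_s_at and -0.33 ± 0.0703 (adjusted p 0.0018) for 216973_s_at. The same probe sets in H1299 at 3 µM differed by 0.44 ± 0.104 (adjusted p 0.00251), 0.26 ± 0.0701 (adjusted p 0.00732) and 0.19 ± 0.0703 (adjusted p 0.0426). Decitabine gave no call for any of the 3 in either line, and with it 204779_s_at read 1269 and 1297 at 0.3 µM, 1404 and 1429 at 1 µM, and 1421 and 1481 at 3 µM in A549 and 2397 and 2412 at 0.3 µM, 2405 and 2340.3 at 1 µM, and 2417 and 2319 at 3 µM in H1299. For 204778_x_at the decitabine arrays read 386 and 367 at 0.3 µM, 408 and 424 at 1 µM, and 362 and 370.0 at 3 µM in A549 and 857 and 844 at 0.3 µM, 656 and 892 at 1 µM, and 809.9 and 702 at 3 µM in H1299.

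204778_x_at of HOXB7 read 360.0 and 397 under vehicle, 335 and 323 at 0.3 µM, 294 and 326 at 1 µM, and 256 and 241 at 3 µM of azacitidine in A549 and 706 and 695 under vehicle, 966 and 872 at 0.3 µM, 929 and 948 at 1 µM, and 946 and 973 at 3 µM in H1299. 216973_s_at read 1317 and 1357 under vehicle, 1266 and 1286 at 0.3 µM, 1130.0 and 1062 at 1 µM, and 1097 and 1017 at 3 µM in A549 and 2098 and 2005 under vehicle, 2419.9 and 2255 at 0.3 µM, 2215 and 2368 at 1 µM, and 2223 and 2485 at 3 µM in H1299. At 1 µM in A549 204779_s_at and 216973_s_at had differences of -0.34 ± 0.0701 (adjusted p 0.00288) and -0.28 ± 0.0703 (adjusted p 0.0112). At 1 µM in H1299 204778_x_at and 204779_s_at had differences of 0.41 ± 0.104 (adjusted p 0.00838) and 0.20 ± 0.0701 (adjusted p 0.0494), and at 0.3 µM 204779_s_at had 0.29 ± 0.0701 (adjusted p 0.0346). The fall of 204778_x_at and 216973_s_at at 3 µM in A549 and the rise of 204778_x_at at 3 µM in H1299 were kept without any 1 array. The other calls of HOXB7 against vehicle were lost without at least 1 array. In A549 these were 204779_s_at at 1 µM (adjusted p 0.0668 without azacitidine 1 µM replicate 2), 204779_s_at at 3 µM (0.0551 to 0.135 without each of its 4 arrays) and 216973_s_at at 1 µM (0.115 without azacitidine 1 µM replicate 2 and 0.0644 without vehicle replicate 2). In H1299 204778_x_at at 1 µM was lost without its replicate 2 or vehicle replicate 2 (0.0576 and 0.0544). 204779_s_at was lost there at 3 µM without its replicate 2 or vehicle replicate 2 (0.0921 and 0.205). At 1 µM it was lost without replicate 1 or 2 or vehicle replicate 2 (0.088, 0.232 and 0.538), and at 0.3 µM without replicate 1 or 2 or vehicle replicate 2 (0.217, 0.1 and 0.337). 216973_s_at at 3 µM in H1299 was lost without its replicate 2 or either vehicle array (0.398, 0.0677 and 0.222). Median centring ended 5 of these calls: 204779_s_at at 1 and 3 µM (0.122 and 0.0529) and 216973_s_at at 1 µM (0.285) in A549, and 204779_s_at and 216973_s_at at 3 µM in H1299 (0.0512 and 0.179). In A549 204779_s_at at 3 µM was also lost with eBayes without trend (0.0617) and without the 3 arrays named above (0.109), without which 204778_x_at and 216973_s_at at 3 µM kept their calls (0.0101 and 0.0102). In H1299 204779_s_at was lost under 5 of 11 other settings at 1 µM (0.0562 to 0.103, with 0.0651 without the 3 arrays) and under 3 of 11 at 0.3 µM (0.0506 to 0.092, the lowest without the 3 arrays). 216973_s_at at 3 µM there was lost under 5 of 10 (0.0538 to 0.179).

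HOXB9, a thoracic patterning gene measured by 216417_x_at alone, rose with 3 µM azacitidine in H1299. As its name ends in x_at, this probe set may also bind other transcripts. It read 163 and 127 under vehicle, 132 and 92.5 at 0.3 µM, 157 and 176 at 1 µM, and 340.2 and 412 at 3 µM. Both arrays at 3 µM lay above all other H1299 arrays, and the difference was 1.21 ± 0.231 (adjusted p 0.000355), the largest called rise with azacitidine among the members. With decitabine in H1299 it read 92.2 and 167 at 0.3 µM, 156 and 131 at 1 µM, and 129.9 and 148 at 3 µM, and no dose was called. In A549 it read 89.7 and 64.0 under vehicle, 88.5 and 95.9 at 0.3 µM, 101 and 85.9 at 1 µM, and 112 and 129.7 at 3 µM of azacitidine and 71.8 and 89.3 at 0.3 µM, 103 and 60.2 at 1 µM, and 84.5 and 58.1 at 3 µM of decitabine. The A549 difference at 3 µM of azacitidine of 0.50 ± 0.231 (adjusted p 0.159) was not called. The H1299 call was kept without any 1 array and under all 10 other settings that could test it.

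**Figure D3:**
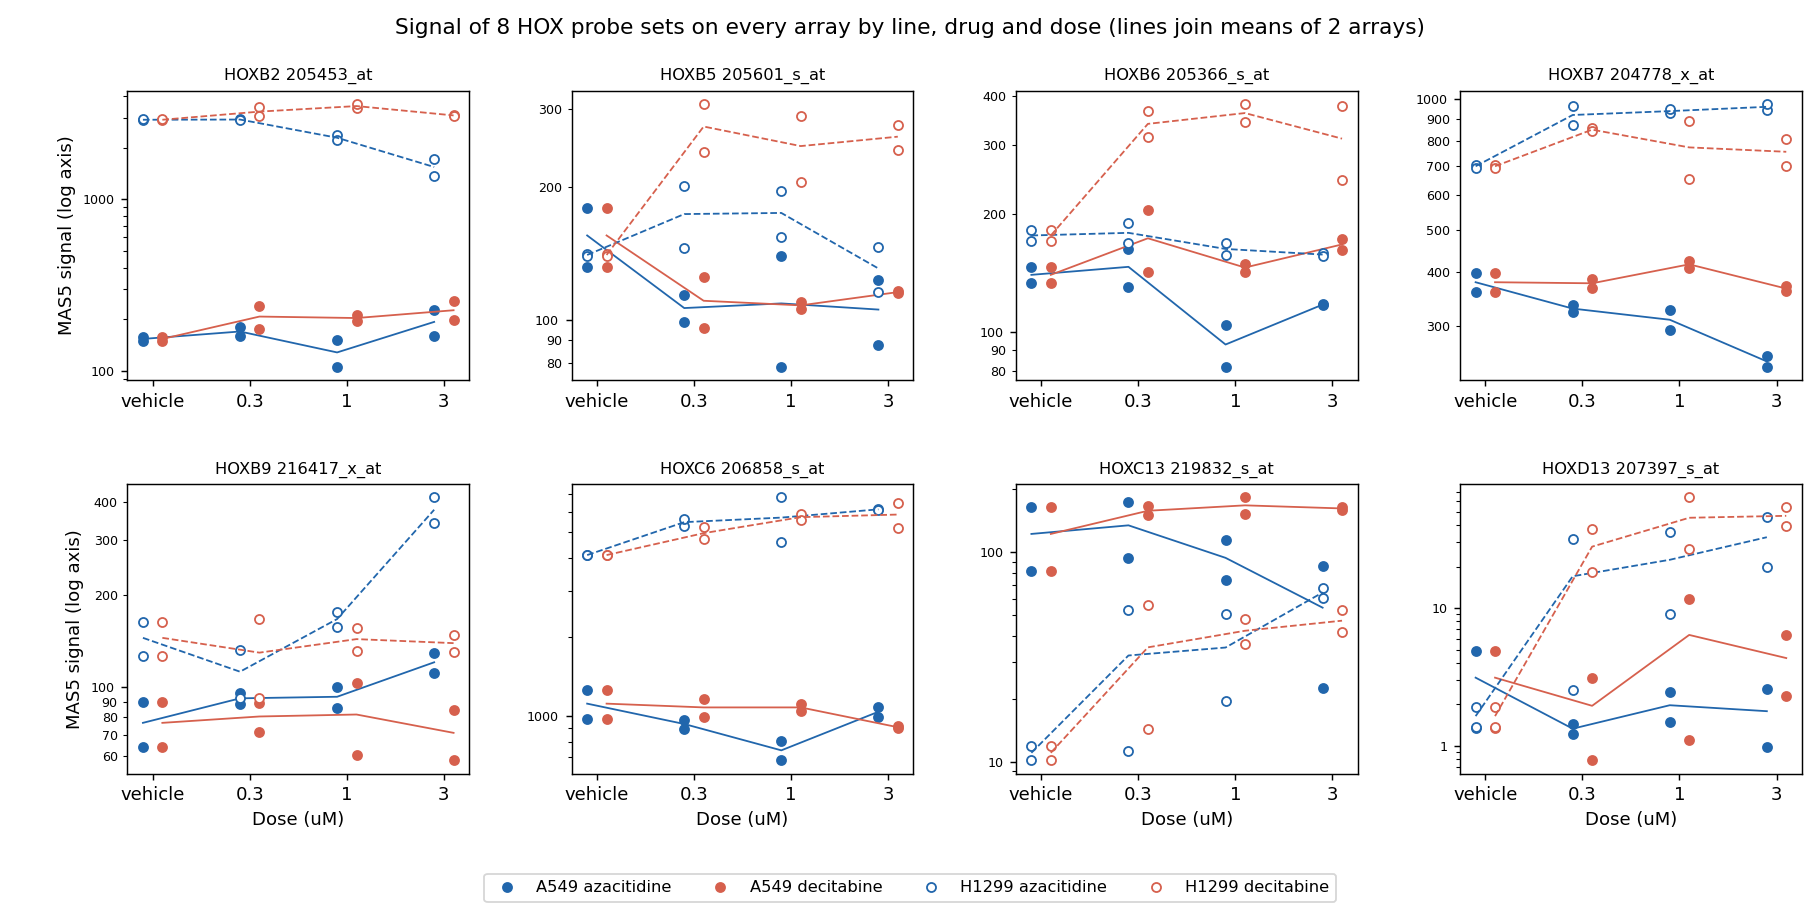
MAS5 signal on a log axis for 8 HOX probe sets on every array, by dose in µM, with filled points for A549, open points for H1299, blue for azacitidine and red for decitabine; lines join the means of 2 arrays, and the vehicle arrays are drawn under each drug. HOXB2 falls with azacitidine in H1299, HOXB5 and HOXB6 stand above vehicle with decitabine in H1299, and HOXB9 stands at 340.2 and 412 with 3 µM azacitidine in H1299.

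HOXC4, a gene also active in lymphoid cells, rose in A549 with azacitidine. It read 321 and 257 under vehicle, 304 and 305 at 0.3 µM, 319.8 and 309 at 1 µM, and 496 and 399 at 3 µM. Both arrays at 3 µM lay above all other A549 arrays, and the difference was 0.58 ± 0.131 (adjusted p 0.00311). With decitabine in A549 it read 333 and 236 at 0.3 µM, 268 and 273 at 1 µM, and 219 and 277 at 3 µM, with no call. In H1299 it read 311 and 313 under vehicle, 329 and 317 at 0.3 µM, 347 and 318 at 1 µM, and 385 and 383 at 3 µM of azacitidine and 356 and 349.8 at 0.3 µM, 337 and 353 at 1 µM, and 355 and 354 at 3 µM of decitabine. The difference there at 3 µM of azacitidine of 0.28 ± 0.131 (adjusted p 0.135) was not called. The A549 call was lost without azacitidine 3 µM replicate 1 or vehicle replicate 2 (adjusted p 0.0703 and 0.0656) and kept without the 3 arrays named above (0.0227). HOXC5 shares the RefSeq window of HOXC4 (chr12:54016638-54016937, plus strand), shown because HOXC4 had the only called rise of a member with azacitidine at 3 µM in A549. The RefSeq records of HOXC4, HOXC5 and HOXC6 all begin at 54016888, so this start is not particular to HOXC4.
HOXC4: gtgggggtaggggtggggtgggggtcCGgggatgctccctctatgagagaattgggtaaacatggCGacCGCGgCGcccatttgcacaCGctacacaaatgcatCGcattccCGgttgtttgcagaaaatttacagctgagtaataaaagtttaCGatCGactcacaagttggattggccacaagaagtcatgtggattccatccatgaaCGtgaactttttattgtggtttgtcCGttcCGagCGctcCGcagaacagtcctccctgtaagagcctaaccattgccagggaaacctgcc
It holds 15 CpG, and 48.9% of all windows hold as many or more. HOXC5 lay between 73.9 and 213 over all arrays and was called in no drug comparison.

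HOXC6 rose with both drugs in H1299. It read 4109 and 4092 under vehicle, 5308 and 5631 at 0.3 µM, 6789.5 and 4594 at 1 µM, and 6137 and 6099 at 3 µM of azacitidine there. With decitabine it read 4709 and 5225 at 0.3 µM, 5853 and 5574 at 1 µM, and 6476 and 5216 at 3 µM. All 12 treated H1299 arrays lay above both vehicle arrays. For azacitidine the differences were 0.41 ± 0.144 (adjusted p 0.173), 0.44 ± 0.144 (adjusted p 0.0365) and 0.57 ± 0.144 (adjusted p 0.00393) at 0.3, 1 and 3 µM, and for decitabine 0.27 ± 0.144 (adjusted p 0.299), 0.48 ± 0.144 (adjusted p 0.0378) and 0.50 ± 0.144 (adjusted p 0.0218); those at 1 and 3 µM were called with each drug. The azacitidine call at 3 µM was kept without any 1 array. That at 1 µM was lost without its replicate 1 or either vehicle array (adjusted p 0.125 to 0.521). The decitabine call at 1 µM was lost without each of its 4 arrays (0.109 to 0.174), and that at 3 µM without its replicate 1 or either vehicle array (0.0922 to 0.256). With eBayes without trend or only H1299 in the fit both calls at 1 µM were lost (0.0613 and 0.0621 for azacitidine, 0.0652 and 0.0665 for decitabine), and that of decitabine also with quantile normalization (0.0587). In A549 HOXC6 read 1257 and 978 under vehicle, 898 and 971 at 0.3 µM, 804 and 680.0 at 1 µM, and 1089 and 992 at 3 µM of azacitidine, and the fall at 1 µM of -0.56 ± 0.144 (adjusted p 0.0121) was called. With decitabine in A549 it read 1165 and 996 at 0.3 µM, 1049.7 and 1112 at 1 µM, and 901 and 917 at 3 µM, with no call. The A549 call was lost without azacitidine 1 µM replicate 2 (0.144) or vehicle replicate 1 (0.197), and without the 3 arrays named above (0.225).

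HOXC8, which patterns thoracic vertebrae, was the only member that decitabine lowered past the threshold. In A549 it read 98.6 and 125 under vehicle, 61.0 and 59.0 at 0.3 µM, 49.2 and 92.8 at 1 µM, and 54.3 and 61.0 at 3 µM of decitabine. Each of the 6 treated arrays lay below both vehicle arrays, and the difference at 3 µM was -0.68 ± 0.222 (adjusted p 0.05), at the edge of the threshold. With azacitidine in A549 it read 101 and 83.6 at 0.3 µM, 122 and 131 at 1 µM, and 146 and 113 at 3 µM, with no call. The H1299 arrays of HOXC8 read 205 and 283 under vehicle, 176 and 199 at 0.3 µM, 127 and 187 at 1 µM, and 241 and 161 at 3 µM of azacitidine and 149 and 194 at 0.3 µM, 184 and 201 at 1 µM, and 201 and 244 at 3 µM of decitabine, also with no call. The decitabine call was lost without each of its 4 arrays (adjusted p 0.0799 to 0.224), without the 3 arrays named above (0.222), and under quantile normalization, median centring, a pseudocount of 100 and a fit of A549 alone (0.0592 to 0.0842).

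HOXC13 was dim in H1299 and rose there with azacitidine at 3 µM. It read 10.2 and 11.9 under vehicle, 53.2 and 11.2 at 0.3 µM, 50.8 and 19.5 at 1 µM, and 67.9 and 60.9 at 3 µM of azacitidine there, and 56.1 and 14.4 at 0.3 µM, 47.9 and 36.6 at 1 µM, and 52.9 and 41.6 at 3 µM of decitabine. The difference with azacitidine at 3 µM of 1.16 ± 0.389 (adjusted p 0.0279) was called, and that with decitabine at 3 µM of 0.88 ± 0.389 (adjusted p 0.153) was not. The azacitidine call was lost without each of its 4 arrays (adjusted p 0.084 to 0.118) and with a pseudocount of 100 (0.0595). In A549 the gene read 164 and 81.1 under vehicle, 175 and 94.5 at 0.3 µM, 115 and 73.6 at 1 µM, and 22.6 and 86.3 at 3 µM of azacitidine and 166 and 150.3 at 0.3 µM, 153 and 183 at 1 µM, and 159 and 166 at 3 µM of decitabine, with no call. Replicate 1 at 3 µM of azacitidine, the lowest of the 14 A549 values, is among the 3 arrays named above.

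Cluster D held 2 genes with calls, both higher in H1299. HOXD13, which patterns the digits, read 1.91 and 1.37 under vehicle, 37.8 and 18.2 at 0.3 µM, 63.7 and 27.0 at 1 µM, and 54.1 and 39.7 at 3 µM with decitabine in H1299 (207397_s_at). With azacitidine it read 2.56 and 31.5 at 0.3 µM, 35.8 and 9.12 at 1 µM, and 45.6 and 19.9 at 3 µM there. All 12 treated H1299 arrays lay above both vehicle arrays, and in A549, with no call, it read 1.36 and 4.89 under vehicle, 1.23 and 1.44 at 0.3 µM, 2.46 and 1.48 at 1 µM, and 2.59 and 0.979 at 3 µM of azacitidine and 3.12 and 0.783 at 0.3 µM, 1.10 and 11.7 at 1 µM, and 6.37 and 2.31 at 3 µM of decitabine. The differences with decitabine in H1299 were 0.81 ± 0.279 (adjusted p 0.0859), 1.16 ± 0.279 (adjusted p 0.00891) and 1.22 ± 0.279 (adjusted p 0.00457), of which those at 1 and 3 µM were called, and that with azacitidine at 3 µM was 0.92 ± 0.279 (adjusted p 0.0159). These signals stayed under the array median on all 28 arrays, and exceeded the 25th percentile on 9. The decitabine call at 3 µM was lost without decitabine 3 µM replicate 1 (adjusted p 0.0554), and that at 1 µM without its replicate 1 or either vehicle array (0.0528 to 0.155). The azacitidine call was lost without its replicate 1 or either vehicle array (0.0619 to 0.206) and with only H1299 in the fit (0.0731, and 0.0582 for decitabine at 1 µM). The other HOXD13 probe set (207398_at) lay between 2.60 and 66.6 and was called in no comparison. In H1299 it read 29.9 and 38.7 under vehicle. With azacitidine it read 23.3 and 14.7 at 0.3 µM, 66.6 and 48.1 at 1 µM, and 43.8 and 19.3 at 3 µM there. With decitabine it read 53.0 and 31.1 at 0.3 µM, 46.8 and 41.9 at 1 µM, and 34.2 and 38.4 at 3 µM. The probe sets of HOXD13 thus differ in its level before drug.

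HOXD1, active in developing sensory neurons in mouse, read 86.8 and 114 under vehicle, 69.9 and 62.1 at 0.3 µM, 112 and 75.5 at 1 µM, and 185 and 192 at 3 µM of azacitidine in H1299 (205975_s_at). With decitabine it read 137 and 88.6 at 0.3 µM, 175 and 132 at 1 µM, and 181 and 221 at 3 µM. In A549 it read 162 and 122 under vehicle, 90.2 and 89.6 at 0.3 µM, 78.5 and 122 at 1 µM, and 152 and 120.0 at 3 µM of azacitidine and 72.7 and 176 at 0.3 µM, 148 and 147 at 1 µM, and 119 and 127 at 3 µM of decitabine, with no call. In H1299 the arrays at 3 µM of each drug lay above both vehicle arrays, with differences of 0.75 ± 0.261 (adjusted p 0.0359) for azacitidine and 0.82 ± 0.261 (adjusted p 0.0385) for decitabine. Each call was lost without each of its 4 arrays in turn (adjusted p 0.052 to 0.212 for azacitidine and 0.0672 to 0.23 for decitabine). The azacitidine call was also lost with quantile normalization (0.0604) and the decitabine call without the 3 arrays named above (0.0527). The other HOXD1 probe set (205974_at) lay between 0.832 and 23.4, with no call. The windows of HOXD10 (chr2:176116528-176116827, plus strand), HOXD12 (chr2:176099545-176099844, plus strand) and HOXD13 (chr2:176092471-176092770, plus strand) are printed to set a called gene beside 2 neighbours of its cluster that stayed under the 25th percentile on every array, with CG in capitals. The start site of the HOXD13 window lies 5234 bases inside the RefSeq gene record, which begins at 176087487, whereas those of the other 9 matched genes coincide with the start of theirs.
HOXD10: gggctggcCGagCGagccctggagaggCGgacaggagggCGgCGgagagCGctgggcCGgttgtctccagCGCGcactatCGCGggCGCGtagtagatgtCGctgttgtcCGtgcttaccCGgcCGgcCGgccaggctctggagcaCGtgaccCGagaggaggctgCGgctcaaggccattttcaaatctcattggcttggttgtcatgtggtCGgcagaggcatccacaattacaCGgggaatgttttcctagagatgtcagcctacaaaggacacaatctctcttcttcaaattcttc
HOXD12: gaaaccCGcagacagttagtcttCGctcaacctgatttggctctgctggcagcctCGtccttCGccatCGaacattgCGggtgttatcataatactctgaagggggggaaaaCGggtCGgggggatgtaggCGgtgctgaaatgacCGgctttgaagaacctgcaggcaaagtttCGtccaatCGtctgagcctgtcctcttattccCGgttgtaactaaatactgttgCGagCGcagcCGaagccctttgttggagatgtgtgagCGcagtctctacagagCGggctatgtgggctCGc
HOXD13: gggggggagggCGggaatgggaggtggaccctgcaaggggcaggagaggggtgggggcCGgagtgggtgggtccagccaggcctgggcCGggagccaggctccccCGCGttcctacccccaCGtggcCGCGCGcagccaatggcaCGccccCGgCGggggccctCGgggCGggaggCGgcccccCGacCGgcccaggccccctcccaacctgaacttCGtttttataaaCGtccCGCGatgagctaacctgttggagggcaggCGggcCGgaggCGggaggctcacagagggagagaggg
They hold 23, 19 and 24 CpG, and 35.8%, 42.9% and 33.9% of all windows hold as many or more. Of the 24 member genes 10 matched a window, with 4 to 36 CpG and a median of 17, against a median of 14 over all windows, 96% of which hold at least 1 CpG.

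The 16 probe sets that no dose of either drug changed against vehicle past the threshold included all those of HOXB1, HOXB3, HOXB8, HOXB13, HOXC5, HOXC10, HOXC11, HOXD4, HOXD9, HOXD10, HOXD11 and HOXD12. HOXC10 in H1299 read 340.0 and 361 under vehicle, 388 and 406 at 0.3 µM, 383 and 386 at 1 µM, and 432 and 471 at 3 µM of azacitidine and 261 and 406 at 0.3 µM, 372 and 403 at 1 µM, and 392 and 411 at 3 µM of decitabine, and its difference at 3 µM of azacitidine was 0.34 ± 0.193 (adjusted p 0.228). HOXD9 (205604_at) in H1299 read 119.6 and 87.8 under vehicle, 78.0 and 76.5 at 0.3 µM, 110.2 and 182 at 1 µM, and 194 and 136 at 3 µM of azacitidine, with 0.53 ± 0.285 (adjusted p 0.191) at 3 µM. In H1299 with decitabine it read 92.7 and 86.1 at 0.3 µM, 53.1 and 71.4 at 1 µM, and 90.3 and 60.0 at 3 µM. In A549 HOXC10 read 90.6 and 47.1 at 0.3 µM, 95.9 and 94.5 at 1 µM, and 60.9 and 57.7 at 3 µM of azacitidine and 76.0 and 95.9 at 0.3 µM, 73.3 and 73.3 at 1 µM, and 62.7 and 80.7 at 3 µM of decitabine. HOXD9 (205604_at) read 21.8 and 29.1 at 0.3 µM, 19.2 and 11.5 at 1 µM, and 16.6 and 12.9 at 3 µM of azacitidine and 24.4 and 13.7 at 0.3 µM, 41.6 and 29.8 at 1 µM, and 14.5 and 52.8 at 3 µM of decitabine there, and the 14 A549 arrays of each lay below all 14 H1299 arrays. HOXD10 ranged over all 28 arrays from 1.15 to 6.84 and HOXD12 from 0.704 to 3.54. HOXB1, HOXB3, HOXB8, HOXB13, HOXD4 and HOXD11 each stayed below the array median throughout. Nearness to background limits what these arrays can show for them, so no call is not a sign that the genes did not respond.

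By position, of 6 probe sets with paralog numbers 1 to 3, 3 were called in at least 1 drug comparison, against 9 of 13 with numbers 4 to 8 and 3 of 12 with numbers 9 to 13. By cluster, 1 of 1 in A, 8 of 13 in B, 4 of 7 in C and 2 of 10 in D were called, beside the 50.2% of all probe sets given above. Below the array median throughout lay 4 of 6 in the anterior group, 3 of 13 in the central group and 7 of 12 in the posterior group. In H1299 at 3 µM azacitidine the posterior group had 3 higher and 0 lower calls with a median difference of 0.17, the central group 4 and 0 with -0.05, and the anterior group 1 and 1 with -0.15. With decitabine at 3 µM these were 1 and 0 with 0.02, 3 and 0 with 0.10, and 1 and 0 with 0.11. In H1299 17.4% of all probe sets were called higher and 13% lower with azacitidine at this dose, and 8.04% and 7.47% with decitabine. Several calls of the central group are probe sets of 1 gene, HOXB7, and are not independent.

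The drugs were compared at the 3 matched doses of each line, 6 pairs in all, with p adjusted over all probe sets and all 6 pairs. In A549 the pairs at 0.3, 1 and 3 µM gave 0, 6 and 6 called members, beside 5.6%, 17.4% and 25.5% of all probe sets. In H1299 they gave 1, 3 and 6, beside 5.87%, 17% and 28.7%. HOXB6 (205366_s_at) in H1299 was lower with azacitidine than with decitabine at every dose, with differences of -0.81 (-1.17 to -0.45), -1.01 (-1.37 to -0.65) and -0.83 (-1.18 to -0.47), with adjusted p of 0.00185, 0.000227 and 0.00158 and 95% intervals in parentheses. At 3 µM in H1299 HOXB2 was lower with azacitidine, at -0.99 (adjusted p 8.05e-05), and HOXB9 higher, at 1.25 (adjusted p 0.000564). In A549 at 3 µM HOXC4 was higher with azacitidine by 0.78 (adjusted p 0.000234) and HOXC8 by 0.84 (adjusted p 0.011). The widest difference of a member there was that of HOXC13, lower with azacitidine, at -1.27. Its azacitidine arrays read 22.6 and 86.3 and its decitabine arrays 159 and 166. For HOXB7 in A549 the 3 probe sets were lower with azacitidine at 3 µM, with differences of -0.50, -0.35 and -0.41 (adjusted p 0.0015, 0.00115 and 0.000278). The A549 pair at 3 µM includes azacitidine replicate 1 and decitabine replicate 1, which are among the 3 arrays named above. Calls of the matched pairs were not tried with arrays left out.

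Genes that rose with both drugs in H1299 gave no called difference between them at 3 µM. The interval of azacitidine minus decitabine was -0.23 to 0.37 for HOXC6 (adjusted p 0.841), -0.89 to 0.28 for HOXD13 (adjusted p 0.574) and -0.62 to 0.47 for HOXD1 (adjusted p 0.925), intervals that do not show that the drugs act alike. Averaged over the 3 doses, azacitidine and decitabine differed in 8 members in A549, beside 31.4% of all probe sets. They were HOXB2 (-0.34), HOXB6 (-0.37), the 3 probe sets of HOXB7 (-0.36, -0.25 and -0.24), HOXC4 (0.36), HOXC8 (0.64) and HOXC13 (-0.73), with adjusted p of 8.08e-05 to 0.017. In H1299 they differed in 7, beside 30.4%. These were HOXB2 (-0.58), HOXB5 (205601_s_at, -0.62), HOXB6 (-0.88), 2 probe sets of HOXB7 (0.24 and 0.13), HOXB9 (0.43) and HOXD9 (205604_at, 0.54), with adjusted p of 7.04e-07 to 0.018. HOXC13 in A549 was lost without azacitidine 0.3 µM replicate 2, 1 µM replicate 2 or 3 µM replicate 1 (adjusted p 0.0646, 0.0536 and 0.0752) and without the 3 arrays named above (0.0926). In H1299 HOXB9 was lost without azacitidine 0.3 µM replicate 1 or 3 µM replicate 2 or decitabine 0.3 µM replicate 1 or 1 µM replicate 2 (0.0515 to 0.0795). HOXD9 there was lost without azacitidine 1 µM replicate 2 or 3 µM replicate 1 or decitabine 3 µM replicate 2 (0.0573 to 0.0645), and 216973_s_at of HOXB7 without azacitidine 0.3 µM replicate 1, 1 µM replicate 2 or 3 µM replicate 2 or decitabine 1 µM replicate 2 (0.0589 to 0.0764) and with median centring (0.0828). A pseudocount of 1 ended the calls of HOXC13 in A549 (0.0615) and HOXD9 in H1299 (0.108), and a fit of A549 alone that of HOXB2 there (0.0532).

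**Figure D4:**
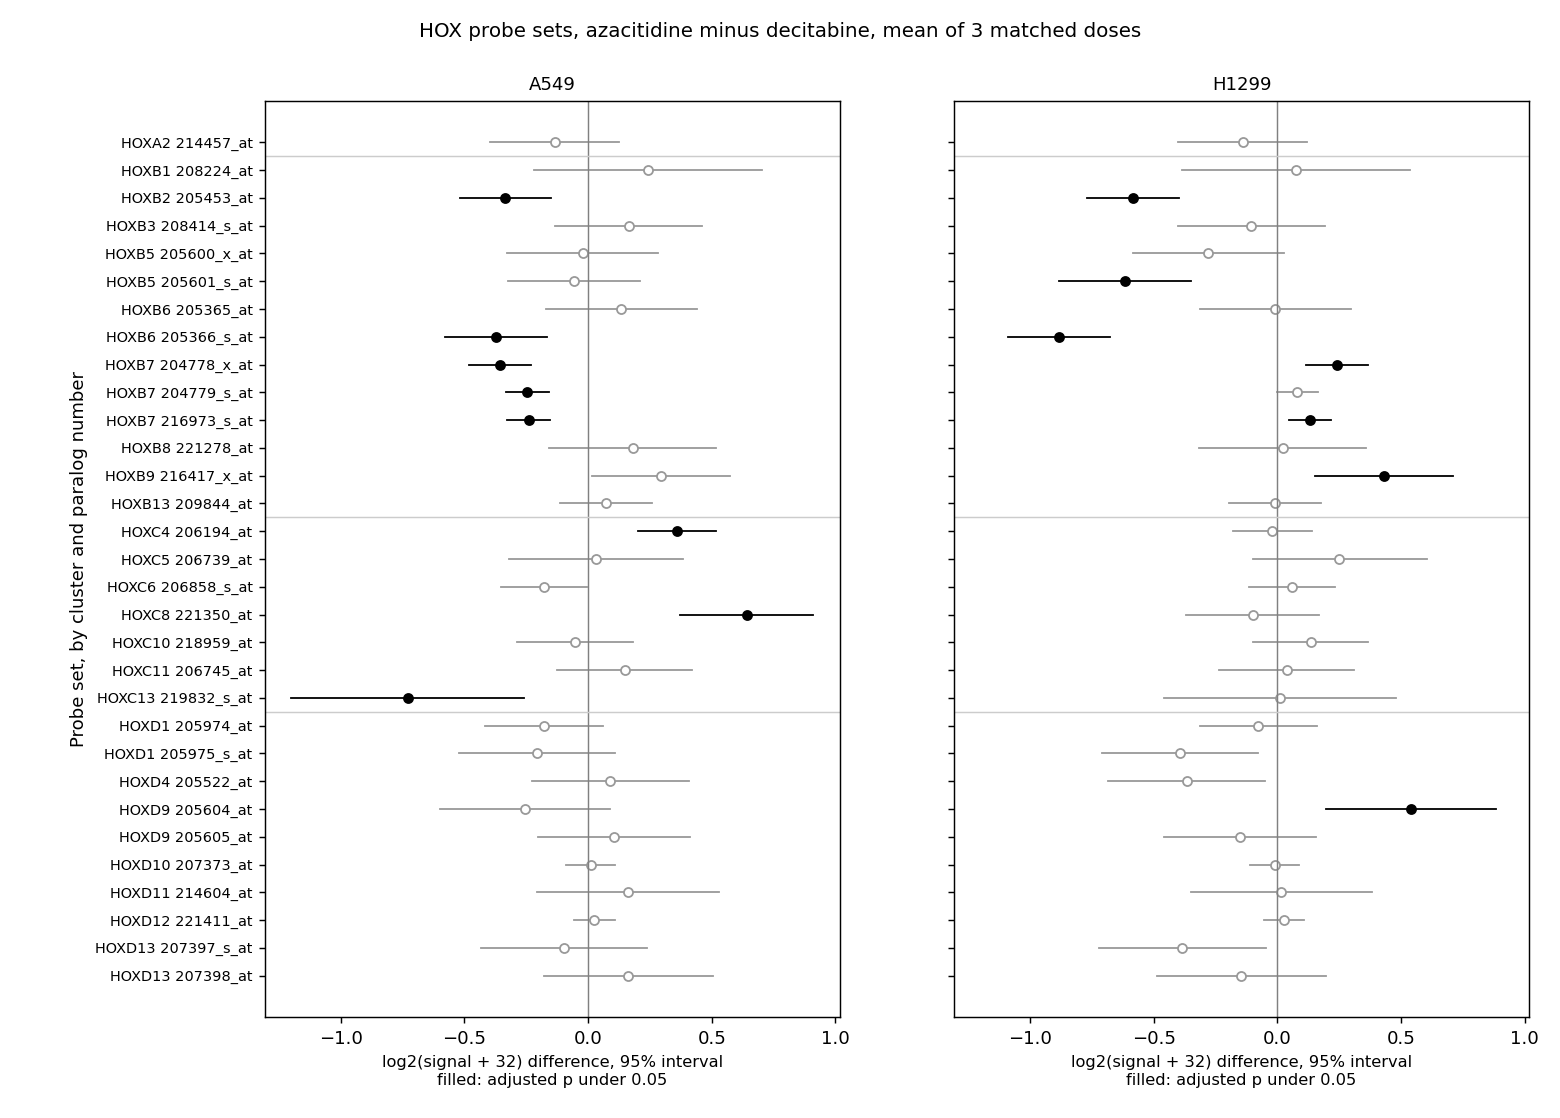
Azacitidine minus decitabine averaged over 3 matched doses in A549 (left) and H1299 (right), for the 31 HOX probe sets in log2(signal + 32) units with 95% intervals. Filled points passed the test, 8 in A549 and 7 in H1299, with HOXB6 at -0.37 and -0.88.

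The difference between the lines in the response at 3 µM was tested itself. For azacitidine 6 members passed, beside 15.6% of all probe sets. They were HOXB2, higher in A549 by 1.17 ± 0.215 (adjusted p 0.000718), and HOXB7 by its 3 probe sets, HOXC6 and HOXC13, lower in A549. For 204778_x_at, 204779_s_at and 216973_s_at of HOXB7 the values were -0.99 ± 0.147 (adjusted p 9.33e-05), -0.49 ± 0.0991 (adjusted p 0.00177) and -0.52 ± 0.0994 (adjusted p 0.000962). HOXC6 differed by -0.66 ± 0.203 (adjusted p 0.031) and HOXC13 by -2.05 ± 0.55 (adjusted p 0.014). For decitabine 2 members passed, beside 8.01%, HOXB5 (205601_s_at) with -1.09 ± 0.311 (adjusted p 0.0364) and HOXC6 with -0.78 ± 0.203 (adjusted p 0.0218). The HOXC13 call was lost without A549 azacitidine 3 µM replicate 1 (adjusted p 0.0918) or A549 vehicle replicate 1 (0.0793). That of HOXC6 for azacitidine was lost without each of its 8 arrays but A549 azacitidine 3 µM replicate 1 and A549 vehicle replicate 2 (0.07 to 0.159). For decitabine, HOXC6 was lost without A549 decitabine 3 µM replicate 1, A549 vehicle replicate 1, H1299 decitabine 3 µM replicate 1 or either H1299 vehicle array (0.0586 to 0.116), and HOXB5 without each of its 8 arrays but A549 vehicle replicate 2 (0.0656 to 0.143). Without the 3 arrays named above 4 members passed for azacitidine (HOXB2 and HOXB7 by 3 probe sets) and 0 for decitabine. The adjusted p without them were 0.185 for HOXC6 and 0.305 for HOXC13 with azacitidine, and 0.208 for HOXC6 and 0.211 for HOXB5 with decitabine. With all arrays, eBayes without trend ended the azacitidine call of HOXC6 (0.0534), and for decitabine limma gave 4 members an uncorrected p under 0.05.

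The genes that work with or regulate HOX genes were read from lists. TALE cofactors, the homeodomain partners of HOX proteins, had 16 probe sets of 6 genes, with 1 higher and 0 lower for azacitidine and 1 and 1 for decitabine at 3 µM in A549, and 0 and 2 for azacitidine and 1 and 1 for decitabine in H1299. PBX3 (204082_at), a TALE cofactor, fell in H1299, with differences of -0.87 ± 0.0676 with azacitidine and -0.76 ± 0.0676 with decitabine (adjusted p 5.09e-09 and 1.67e-07), and rose in A549 by 0.49 ± 0.0676 with decitabine (adjusted p 5.19e-05). Other called TALE cofactors at 3 µM were PKNOX2 (222185_at), higher by 0.70 with azacitidine in A549, PBX2, lower, with -0.66 with decitabine in A549 (202876_s_at) and -0.89 with azacitidine in H1299 (202875_s_at), and PKNOX1 (204195_s_at), higher by 0.80 with decitabine in H1299. Under vehicle 7 of the 16 were lower in A549 than in H1299 and 0 higher, with a median of -0.49, beside 20% of all probe sets lower and 19.4% higher and a median of 0.02. Of the lists below, Polycomb had 18 lower and 3 higher of 37 under vehicle, and flanking genes 8 and 2 of 29. Trithorax and related activators had 6 lower and 4 higher of 31, and retinoic acid and CDX factors 0 and 7 of 23.

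Polycomb subunits, which repress HOX clusters, had 37 probe sets of 19 genes. In A549 at 3 µM azacitidine gave 5 higher and 1 lower (median 0.11) and decitabine 0 and 2 (-0.05). In H1299 azacitidine gave 12 and 4 (0.26) and decitabine 4 and 3 (-0.02). EZH1, a histone methyltransferase, rose with azacitidine by 1.496 (203249_at) and 1.24 (32259_at) in A549 and by 1.11 (32259_at) in H1299. PCGF1, a subunit of a Polycomb ubiquitin ligase, rose by 1.24 there. RBBP7, a histone chaperone, fell with azacitidine, with differences of -0.37 in A549 and -0.72 in H1299, and EED (210656_at), a Polycomb core subunit, with -0.53 in H1299 at mean signals of 7.89 against 25.5 under vehicle. With decitabine EZH2 (203358_s_at) fell in A549 (-0.30), as did CBX6, a chromodomain subunit (-0.76), and CBX6 (-0.57) and PHC2, a scaffold subunit (-0.76), fell in H1299, where RING1 and RBBP4 (217301_x_at) rose by 0.56 and 0.44.

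Trithorax and related activators, which keep HOX genes on, had 31 probe sets of 15 genes. Azacitidine at 3 µM in A549 gave 6 higher and 0 lower (median 0.20) and decitabine 2 and 3 (-0.04). In H1299 azacitidine gave 10 and 2 (0.15) and decitabine 1 and 1 (-0.02). With azacitidine KDM6B, an H3K27 demethylase, rose by 0.95 (213146_at) in A549 and by 1.28 (41387_r_at) in H1299, CTCF, an insulator protein, by 0.59 in A549, and RBBP5, a subunit of KMT2 complexes, by 1.08 in H1299. MLLT3, an elongation factor subunit, fell with azacitidine in H1299, with differences of -0.61 (204917_s_at) and -1.075 (204918_s_at). With decitabine KMT2A, a histone methyltransferase, fell, with differences of -0.62 (212079_s_at) and -0.78 (212076_at) in A549 and -0.48 (212078_s_at) in H1299, while AFF1 rose by 0.32 in A549 and 0.35 in H1299 and KDM6A by 0.47 in A549.

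Retinoic acid and CDX factors, upstream regulators of HOX genes in the embryo, had 23 probe sets of 11 genes. At 3 µM in A549 azacitidine gave 1 higher and 2 lower (median 0.13) and decitabine 2 and 0 (0.01). In H1299 azacitidine gave 3 and 0 (0.01) and decitabine 1 and 0 (0.04). CYP26A1, which breaks down retinoic acid, fell with azacitidine and rose with decitabine in A549, with differences of -1.03 ± 0.208 and 1.07 ± 0.208 (adjusted p 0.00116 and 0.00155). RARB, a retinoic acid receptor, fell with azacitidine in A549 (-0.73) and RXRB rose (0.51). RXRA (202449_s_at), another receptor, rose by 0.76 with decitabine in A549 and 0.77 with azacitidine in H1299, where its probe set 202426_s_at rose by 0.89 and CYP26B1 rose by 0.77 with decitabine.

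Genes that flank the clusters had 29 probe sets of 17 genes. At 3 µM in A549 azacitidine gave 6 higher and 6 lower (median -0.05) and decitabine 1 and 7 (-0.03). In H1299 azacitidine gave 8 and 7 (0.14) and decitabine 2 and 3 (-0.07). CBX5, a heterochromatin protein beside cluster C, fell with azacitidine, with differences of -0.78 (209715_at) in A549 and -1.32 (209715_at) and -1.66 (212126_at) in H1299, where 212126_at also fell with decitabine (-0.54). SNX10, a sorting nexin on the side of cluster A, rose by 0.92 with azacitidine and 0.62 with decitabine in A549, and by 0.96 and 0.38 in H1299. SKAP2, its neighbour, fell with azacitidine in A549 (-0.83). NFE2L1 (214179_s_at), on the side of cluster B, rose by 0.93 with azacitidine in A549 and 0.29 with decitabine in H1299, and SMUG1, on the side of cluster C, by 0.84 with azacitidine in H1299. HNRNPA1 fell with decitabine, with differences of -1.10 (221919_at) in A549 and -0.40 (222040_at) in H1299, and so did HNRNPA3 (211929_at) in A549 (-0.76). Beside all these lists, in A549 at 3 µM azacitidine had 10.9% of all probe sets called higher and 9.1% lower, and decitabine 7.44% and 6.14%, with the H1299 shares as given above by position.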

How the data were processed

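Signals of Affymetrix human oligonucleotide arrays were deposited by the authors as MAS5 intensity on a linear scale, per the submitters' processing notes, 1 value per probe set and array. The scaling target and any filter are not given in the sources used here. Probe sets were named from the platform annotation, and 19064 of 22215 carried 1 gene symbol, 1043 several and 2108 none. Intensities, as deposited, were transformed as log2(signal + 32) without further scaling, after leaving out 62 control probe sets. limma 3.58.1 in R 4.3.3 fitted a mean for each of the 14 groups over all 28 arrays, with an intensity trend in eBayes and 14 residual degrees of freedom. Each dose was compared with its vehicle, the drugs at matched doses and over the doses, the 3 µM responses between lines, and the vehicle groups. Adjusted p-values are those of Benjamini and Hochberg. The fit was tested on simulated data.

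The members, gene lists and tests were chosen with earlier results of these data known. Values of every array were given for members called against vehicle with an absolute difference of at least 0.5 and for members called between the vehicle groups with at least 1. For the other probe sets of their genes a range was given, with values of some arrays for 205605_at and 207398_at. From each list the 2 largest called probe sets per direction, line and drug at 3 µM were named. Windows were shown for genes with the largest called rise or fall at 3 µM and for members below the array median throughout. Alternatives were quantile normalization, median centring, pseudocounts of 1 and 100, filters on low signal, 1 probe set per gene, eBayes without trend, a replicate block, 1 line in the fit and each array left out. Leaving out the 3 A549 arrays in doubt was added after the data were seen. Replicate arrays of a group were compared, and 0 pairs held identical values. Figures were drawn with matplotlib 3.10.9 in Python 3.11.15.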

Additional observations from a re-analysis of the deposited data

Results flagged for a closer look

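For 8 results the response at 3 µM differed between the lines by the test of that difference, as A549 minus H1299 on the log2(signal + 32) scale with limma's adjusted p. With azacitidine the values were 1.17 for HOXB2 (adjusted p 0.000718), -0.99, -0.49 and -0.52 for the HOXB7 probe sets 204778_x_at, 204779_s_at and 216973_s_at (adjusted p 9.33e-05, 0.00177 and 0.000962), -0.66 for HOXC6 (adjusted p 0.031) and -2.05 for HOXC13 (adjusted p 0.014). With decitabine they were -1.09 for HOXB5 205601_s_at (adjusted p 0.0364) and -0.78 for HOXC6 (adjusted p 0.0218). Without the 3 A549 arrays in doubt the azacitidine calls of HOXC6 and HOXC13 and both decitabine calls were lost, as given above.

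There were 3 probe sets annotated to LOC401021, HOXD4 and HOXD3 together, which belong to no comparison above. Of them 2 passed the test at 3 µM of azacitidine, each in only 1 line. 217076_s_at averaged 2.16 in A549 with azacitidine, against 16.8 under vehicle, a difference of -0.51 ± 0.179 (adjusted p 0.0496). Both means lay under 18.0, the lowest 25th percentile of any array. Vehicle replicate 1 and azacitidine 3 µM replicate 1, among the 3 A549 arrays in doubt, enter this difference. In H1299 this probe set did not pass (adjusted p 0.621). 206601_s_at averaged 30.6 in H1299 with azacitidine, against 2.17 under vehicle, a difference of 0.87 ± 0.251 (adjusted p 0.0109). In A549 this probe set did not pass (adjusted p 0.993). Neither call is among the 69 named differences that were tried under other settings. The third probe set, 206602_s_at, did not pass the test in either line (adjusted p 0.569 in A549 and 0.324 in H1299).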

How the results depend on the processing

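None of the 69 named differences changed direction under any of the 11 settings tried, and those that lost their call numbered 3 with quantile normalization, 9 with median centring, 4 with a pseudocount of 1, 3 with a pseudocount of 100, 8 with eBayes without trend, 2 with the replicate block, 11 of 49 with 1 line in the fit and 14 without the 3 A549 arrays in doubt. The cause was not tested. The drug differences at single matched doses are not among the 69. The 2 HOX probe sets called for A549 decitabine became 1 with quantile normalization, eBayes without trend or the filter at the 75th percentile, and 0 with median centring, a pseudocount of 100, 1 line in the fit or without the 3 arrays. Only 5 HOX probe sets pass that filter, and with it the counts were 5 for H1299 azacitidine, 1 for H1299 decitabine, 5 between the vehicle groups, 4 and 3 for azacitidine minus decitabine in A549 and H1299, and 1 for the difference between lines in the decitabine response. With 1 probe set per gene H1299 decitabine had 3 and that difference between lines 1, and without the 3 arrays that line difference was 0. Leaving out 1 array at a time gave 4 to 6 calls for A549 azacitidine and 0 to 2 for A549 decitabine (0 without either vehicle array or decitabine 3 µM replicate 2). In H1299 it gave 5 to 10 for azacitidine (5 without either vehicle array) and 2 to 6 for decitabine (3 without vehicle replicate 1 and 2 without vehicle replicate 2). It gave 9 to 11 between the vehicle groups, 7 to 9 and 5 to 10 for azacitidine minus decitabine in A549 and H1299, and 5 to 6 and 0 to 2 for the line difference with azacitidine and decitabine. Deviations of samples that share a replicate number had correlations of -0.139 to 0.188 over 21 group pairs in A549, 3 of them over 0.1, and of -0.0458 to 0.092 over 21 in H1299, 0 of them over 0.1. As not every pair was over 0.1, the samples were not treated as paired. With the replicate block as a term the counts were 7 and 2 for azacitidine and decitabine in A549, 9 and 5 in H1299, 12 between the vehicle groups, 8 and 7 between the drugs and 6 and 2 between the lines. Signal below the array median on every array limits what can be seen for 14 dim probe sets.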
